A study of Mus musculus with 4 samples.

Results

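CD8+ T cells from the tumor-draining lymph nodes (TdLN) of mice given RT + αPD-L1 were set against those of untreated mice (Control), across all genes. They were the cells of 2 of the study's 4 libraries, 9673 for RT + αPD-L1 and 8988 for Control, so 18661 of 38317 cells in all. A cell was a member when its barcode had 500 to 5000 detected genes, at most 40000 UMIs, under 10% mitochondrial UMIs and 1 clear hashtag. Barcodes with at least 2 UMIs of Trdc, 2 of Cd79a or 3 of H2-Aa and H2-Ab1 together were then dropped, which took 213 barcodes from RT + αPD-L1 and 183 from Control.

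All mice were female C57BL/6, bought at 6 weeks of age per the study's methods, and carried B16F10GP melanomas, a B16F10 line with a glycoprotein of lymphocytic choriomeningitis virus as model antigen. Controls carried the tumors but received neither treatment. The RT + αPD-L1 mice had 1 tumor irradiated and were given an antibody that blocks PD-L1, and cells were taken on day 7 after treatment. Cells had been sorted as CD8+ PD-1+ CD44+, which is the gate for antigen-experienced T cells. Each treatment was 1 library that pooled 5 mice marked with hashtag antibodies, so treatment and library cannot be told apart, and mice of a library shared 1 droplet pool.

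Interferons act on T cells through receptors that switch on transcription factors, STAT2 and IRF9 among them. Type I interferon assembles these into a complex that binds the ISRE, a DNA element found before many antiviral genes, whereas interferon-γ acts mainly through the GAS element. In a TdLN, CD8+ T cells with PD-1 and the transcription factor TCF-1 (gene Tcf7) are a self-renewing pool from which effector cells with granzymes arise.

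The Control cells held 75077628 UMIs and those given RT + αPD-L1 73674406. A cell had a median of 6945.5 UMIs in Control and 6292 UMIs after the combination, of which 1.83% and 1.65% were mitochondrial. Mice were unevenly represented. Control mice 1 to 5 gave 2123, 3186, 1190, 639 and 1850 cells. RT + αPD-L1 mice 1 to 5 gave 468, 1936, 4693, 1549 and 1027 cells, so mouse 3 alone held 38163808 UMIs and mouse 1 only 3343814. There were 143 barcodes found in both libraries, 1.59% of Control and 1.48% of RT + αPD-L1 cells. The sorted genes did not differ by the test: Cd8a had a mean of 742 CPM (UMI counts scaled to the same total of 1000000 per mouse) in Control and 700 in RT + αPD-L1, and Cd44 had 69.2 and 62.9 CPM. Pdcd1, which encodes PD-1, was at 18.3 to 31.1 CPM in Control, at 21.4 to 26.5 CPM in RT + αPD-L1 mice 1, 2, 4 and 5, and at 65.2 CPM in mouse 3. Its log2 fold change of 0.42 ± 0.27 (SE; edgeR adjusted p = 0.364) turned to -0.15 without mouse 3.

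Promoters of 4 interferon-stimulated genes that lead the comparison, and of Gzmb, which also leads it, are printed to show the element that the former share. Each runs from 250 bases before to 50 bases after the start of the gene in RefSeq (GRCm38.p6), and capitals mark every match to the ISRE core, written GAAANNGAAA or, on the other strand, TTTCNNTTTC. They lie at chr19:34640639-34640938 (+ strand) for Ifit1, chr19:34583279-34583578 (+) for Ifit3, chr12:26456403-26456702 (-) for Rsad2, chr4:156200769-156201068 (-) for Isg15 and chr14:56262285-56262584 (-) for Gzmb.
Ifit1: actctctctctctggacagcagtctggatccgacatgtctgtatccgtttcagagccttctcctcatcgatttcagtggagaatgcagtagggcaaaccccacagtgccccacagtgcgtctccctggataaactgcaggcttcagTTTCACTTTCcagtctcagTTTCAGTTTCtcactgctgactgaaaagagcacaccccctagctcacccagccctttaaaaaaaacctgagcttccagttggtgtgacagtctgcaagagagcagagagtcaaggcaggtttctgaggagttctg
Ifit3: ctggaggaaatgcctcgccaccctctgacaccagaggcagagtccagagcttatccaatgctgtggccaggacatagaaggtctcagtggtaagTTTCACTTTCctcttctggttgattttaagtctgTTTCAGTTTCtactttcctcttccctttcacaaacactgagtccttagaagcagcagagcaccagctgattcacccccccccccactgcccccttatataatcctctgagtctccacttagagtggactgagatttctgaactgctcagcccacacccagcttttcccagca
Rsad2: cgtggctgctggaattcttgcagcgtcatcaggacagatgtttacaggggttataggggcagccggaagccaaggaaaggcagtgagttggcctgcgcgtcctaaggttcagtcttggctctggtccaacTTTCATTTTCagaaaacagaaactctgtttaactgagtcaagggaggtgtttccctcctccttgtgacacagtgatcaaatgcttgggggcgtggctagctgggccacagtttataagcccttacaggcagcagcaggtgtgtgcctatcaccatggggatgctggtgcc
Isg15: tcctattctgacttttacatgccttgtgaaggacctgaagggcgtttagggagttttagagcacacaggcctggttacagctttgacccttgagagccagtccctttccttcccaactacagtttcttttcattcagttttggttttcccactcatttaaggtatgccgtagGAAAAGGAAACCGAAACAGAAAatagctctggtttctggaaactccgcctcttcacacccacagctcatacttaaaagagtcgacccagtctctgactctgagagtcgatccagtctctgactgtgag
Gzmb: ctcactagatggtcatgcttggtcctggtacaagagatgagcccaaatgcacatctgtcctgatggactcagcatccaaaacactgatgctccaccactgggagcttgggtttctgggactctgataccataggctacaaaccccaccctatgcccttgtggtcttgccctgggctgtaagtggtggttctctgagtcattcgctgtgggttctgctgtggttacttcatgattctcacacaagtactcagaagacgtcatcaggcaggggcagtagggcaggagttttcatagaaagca
Ifit1 held 2 matches, starting 104 and 85 bases before the start of the gene, and Ifit3 held 2, at 156 and 122 bases before it. Rsad2 held 1 at 120 bases, and Isg15 held 3 overlapping ones at 78, 72 and 66 bases. The Gzmb window had none of these letters, but held a match to the GAS pattern TTCNNNGAA, which reads the same on both strands.

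The ISRE core was in 3.99% of the 27025 RefSeq promoters of this length and in 3.86% of the 9229 tested genes that had one. It was in 83 of 565 promoters (14.7%) of genes called higher in RT + αPD-L1 and in 2 of 261 (0.766%) of genes called lower. Among the gene lists used below, 33 of 79 antiviral genes with a promoter held it, 9 of 10 interferon-γ-inducible GTPases, 10 of 19 nucleic acid sensors, 4 of 15 granule genes, 0 of 12 NK-type receptors and 1 of 26 antigen receptor response genes. The GAS pattern was in 9.55% of all promoters, in 57 of 565 (10.1%) of genes called higher and in 22 of 261 (8.43%) of genes called lower. It was in 13 of the 79 antiviral promoters, 6 of 10 of the GTPases, 3 of 19 of the sensors, 4 of 15 of the granule genes, 2 of 12 of the NK-type receptors and 2 of 26 of the antigen receptor response genes. The Irf7 and Oasl1 windows held neither pattern although both genes rose, and the Il7r window held only the GAS pattern. A match describes letters in a window, not a bound site.

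Counts were summed per mouse, and the 20 mice of all 4 treatments entered 1 edgeR fit of 12051 genes. Calls were made below an adjusted p of 0.05, and log2 fold changes are RT + αPD-L1 over Control with standard errors. There were 717 genes called higher (5.95% of those tested) and 345 called lower (2.86%), around a median log2 change of all genes of -0.01. In 303 genes (2.51%) all 5 RT + αPD-L1 mice lay above all 5 Control mice, and in 324 (2.69%) all 5 lay below. The total of 1062 calls fell to 645 when Control mouse 1 was left out and to 581 when Control mouse 2 was. Leaving out mouse 2 of RT + αPD-L1 gave 577 calls, and leaving out its mouse 3 gave 540. A sum cannot tell more cells with a transcript from more transcript per cell, so shares of cells are given further on.

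Most antiviral effector genes rose. Of 96 antiviral genes written down, 88 passed the filter on low counts, and 81 of these were called higher and 1 lower, with a median log2 change of 1.10. Its summed level was 8677, 9648, 9703, 7954 and 10288 CPM in Control mice 1 to 5, and 9485, 17752, 22302, 12996 and 12969 CPM in RT + αPD-L1 mice 1 to 5. Thus RT + αPD-L1 mouse 1 lay within the Control range and the other 4 above it, and 8 members had all treated mice above all Controls. The member called lower was Ifi27 (log2 -0.41), whose product sits in mitochondria and the nuclear envelope. The filter on low counts asks for enough counts in as many mice as 1 treatment holds, so genes can pass through RT + αPD-L1 alone. Ifi44 was at 0.638 CPM in Control, 0.363 after RT, 0.383 after αPD-L1 and 4.79 after the combination. Members this low in Control could hardly be called lower, here or in the lists below. The lists were also written with earlier results of these data known.

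Rsad2 encodes viperin, an enzyme that makes a chain-terminating ribonucleotide. It was at 4.86, 3.87, 5.24, 2.36 and 11 CPM in Control mice and at 0.598, 106, 102, 23.1 and 22.6 CPM in RT + αPD-L1 mice, a log2 change of 3.33 ± 0.60 (adjusted p = 0.0021). Mouse 1 was below every Control and the other 4 were above all of them. Isg15, a ubiquitin-like modifier, was at 63.4, 59.1, 61.1, 29.1 and 122 CPM in Control and at 52.0, 586, 823, 182 and 194 CPM in RT + αPD-L1 (2.49 ± 0.50, adjusted p = 0.00377). Ifit3, one of the IFIT proteins that bind foreign RNA, was at 24.6, 20.5, 23.9, 13.2 and 59.0 CPM and at 21.5, 285, 322, 102 and 91.5 CPM (2.58 ± 0.51, adjusted p = 0.00353). In both genes mice 2 and 3 were highest, mice 4 and 5 intermediate and mouse 1 among the Controls. Single treatments gave lower means than the combination, with Isg15 at 54.2 CPM after RT and 46.1 CPM after αPD-L1, and Ifit3 at 21.1 and 15.5 CPM. Oas2, which senses double-stranded RNA (3.20 ± 0.48), Ifitm3, which blocks viral fusion (3.75 ± 0.73), and Ifi44 (3.02 ± 0.48) changed as much but from means of 1.61, 1.56 and 0.638 CPM in Control. Rsad2, Isg15, Ifit3, Ifit1, Usp18 and Oas2 kept their calls in all 20 alternative settings. Reads of Ifit3 and its close copy Ifit3b, and of paralogs among the guanylate-binding, H2-Q, Klra and histone genes, may have been split between copies by the counting.

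**Figure D1:**
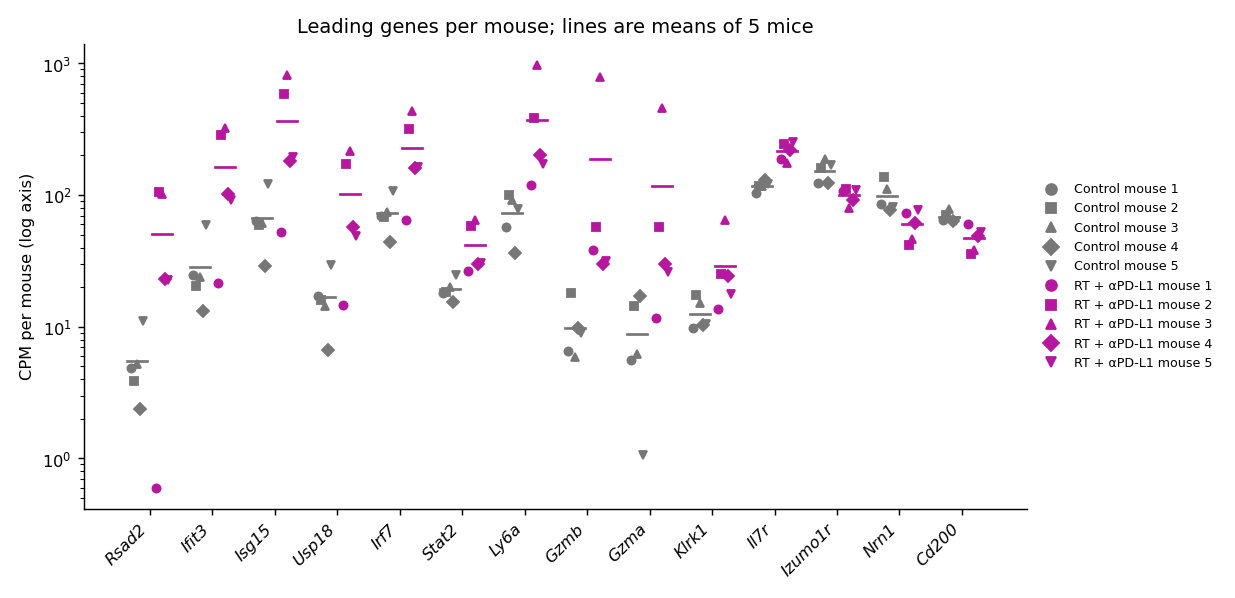
CPM per mouse on a log axis for 14 genes in 5 Control (gray) and 5 RT + αPD-L1 mice (magenta), each symbol 1 mouse and each line the mean of 5. For Rsad2, Ifit3, Isg15, Usp18 and Irf7, RT + αPD-L1 mice 2 to 5 lie above all Control mice and mouse 1 does not; for Gzmb mouse 3 stands at 791 CPM.

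Signal transduction genes moved in part. Of 20 transducers, 7 were called higher and none lower (median log2 change 0.18). Irf7, the amplifier of type I interferon responses, was at 69.7, 68.5, 74.6, 43.9 and 107 CPM in Control and at 64.3, 318, 434, 161 and 164 CPM in RT + αPD-L1 (1.69 ± 0.33, adjusted p = 0.00339). Stat2 was at 18.1, 18.4, 20.2, 15.4 and 24.7 CPM and at 26.3, 57.8, 64.2, 30.2 and 30.7 CPM (1.20 ± 0.20, adjusted p = 0.00163). For Stat2 the groups did not overlap, and mouse 1 was the lowest treated mouse here as well. Irf9 (0.54 ± 0.10) and Stat3 (0.40 ± 0.11) were also called, but Stat3 lost its call in 9 of 20 alternatives. The kinase gene Jak1 was at 415 CPM in Control and 443 CPM in RT + αPD-L1, with a log2 change of 0.11 (adjusted p = 0.133).

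Receptors and ligands were called in 6 of 14 cases, all higher (median 0.27). Ifnar1 and Ifnar2, the type I interferon receptor, had log2 changes of 0.08 and -0.03 and were not called. Il12rb2, the inducible chain of the interleukin-12 receptor, was called at 2.86 ± 0.58 (adjusted p = 0.0041), with 0.984 to 2.62 CPM in Control and 3.29, 7.10, 36.3, 2.57 and 3.46 CPM in RT + αPD-L1 mice. Without mouse 3 its change was 1.33. Ifngr1, an interferon-γ receptor chain, was at 87.0 to 96.9 CPM in Control and at 104, 119, 279, 115 and 105 CPM (0.69 ± 0.19), so the groups did not overlap, and without mouse 3 the change was 0.27. Among 11 feedback inhibitors 5 rose and 1 fell. Usp18, which detaches ISG15 and damps the type I receptor, was at 6.69 to 29.4 CPM in Control and at 14.7, 172, 215, 57.5 and 48.9 CPM (2.64 ± 0.46). Socs3 (0.97 ± 0.25) and Socs1 (0.77 ± 0.21), which block JAK kinases, rose less. Without mouse 3 they were at 0.50 and 0.51 and neither was called.

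Sensors of foreign nucleic acid rose in 18 of 26 cases and none fell (median 0.72). The RNA sensors Ifih1 (1.78 ± 0.31), Dhx58 (1.57 ± 0.31) and Tlr7 (1.49 ± 0.27) and the DNA sensor gene Cgas (0.70) were among them. Ifi204, of the p200 family, changed by 4.54 ± 0.73, but from 0.305 CPM in Control to 20.3 CPM in mouse 3 and 1.20 to 6.59 CPM in the other treated mice. Tmem173, the gene of the STING adaptor, was at 92.1 CPM in both groups (log2 change 0.01, adjusted p = 0.982).

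GTPases that interferon-γ induces and that attack vacuoles of microbes were called higher in 17 of 17 cases, with a median of 1.12. The list summed to 573 to 864 CPM in Control and to 771, 2133, 2435, 999 and 1100 CPM in RT + αPD-L1 mice. Iigp1 was at 4.34, 7.78, 7.75, 3.74 and 8.73 CPM in Control and at 10.5, 47.7, 64.8, 12.9 and 13.8 CPM in RT + αPD-L1 (2.33 ± 0.41, adjusted p = 0.00199). All treated mice were above all Controls in Iigp1, Tgtp1 (1.76 ± 0.31) and Irgm2 (1.65 ± 0.28), and in 5 members in all. In the fit of the 10 mice alone 11 members were called.

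**Figure D2:**
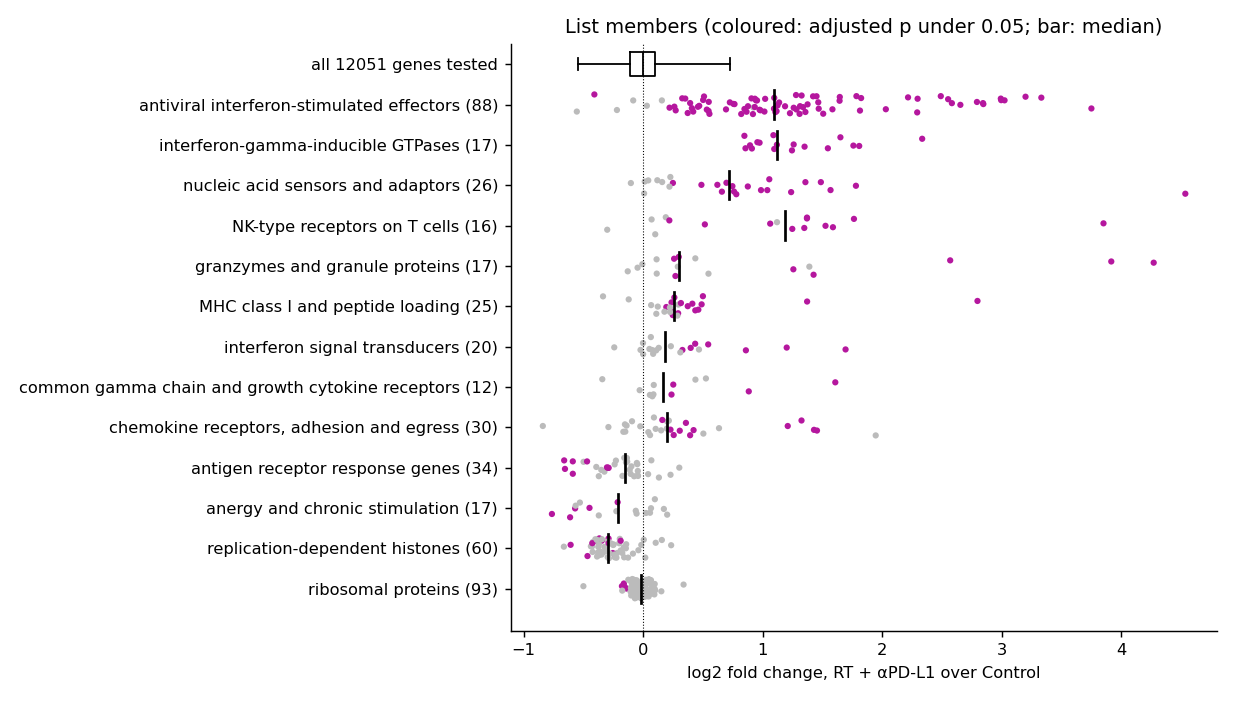
Log2 fold change of RT + αPD-L1 over Control for each tested member (point) of 13 gene lists, with the number of members in brackets. Magenta points were called, black bars are medians, and the top row is a box plot of all 12051 genes; antiviral genes and GTPases lie almost wholly to the right of 0, histones mostly to the left.

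Of 25 genes of MHC class I and its peptide loading 15 were called higher and none lower, by small steps (median 0.26). H2-T23, which encodes the NKG2A ligand Qa-1, was at 409, 447, 470, 375 and 478 CPM in Control and at 460, 684, 751, 561 and 558 CPM in RT + αPD-L1 (0.49 ± 0.10, adjusted p = 0.00419). H2-T24 rose by 1.37 ± 0.21, B2m by 0.24 and the peptide transporter gene Tap1 by 0.41. The proteasome gene Psmb8 was not called (0.22 ± 0.09, adjusted p = 0.118). In the fit of the 10 mice alone 4 were called. The count of 15 fell to 7 when Control mouse 1 was left out, and for RT + αPD-L1 to 6 when mouse 2 and to 7 when mouse 3 was left out.

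Granule proteins that kill target cells were called higher in 8 of 17 cases and lower in none (median 0.30). Gzmb, the gene of granzyme B, was at 6.53, 18.0, 5.92, 9.84 and 8.99 CPM in Control and at 38.6, 56.8, 791, 29.8 and 31.4 CPM in RT + αPD-L1 (4.27 ± 0.84, adjusted p = 0.00339). All treated mice were above all Controls, and mouse 3 was far above the rest. Without mouse 3 the log2 change was 1.92 (adjusted p = 0.0112). Gzma, of granzyme A, was at 5.61, 14.4, 6.27, 17.1 and 1.07 CPM and at 11.7, 57.6, 456, 30.1 and 26.1 CPM (3.92 ± 1.02, adjusted p = 0.0200), and without mouse 3 it was not called (2.04, adjusted p = 0.184). Mouse 1 lay within the Control range. RT alone had Gzmb at 16.8 CPM and αPD-L1 alone at 23.7 CPM. Prf1, of perforin, and Nkg7, a granule membrane protein, were not called (0.44, and 0.29 with adjusted p = 0.104). The count of 8 fell to 4 when RT + αPD-L1 mouse 3 or Control mouse 1 was left out, and to 5 when Control mouse 5 was.

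NK-type receptors were called higher in 11 of 16 cases and lower in none (median 1.18), and summed to 666 to 715 CPM in Control and to 815, 885, 1003, 861 and 834 CPM in RT + αPD-L1. Klrk1, of the activating receptor NKG2D, was at 9.71, 17.5, 15.2, 10.2 and 10.5 CPM in Control and at 13.8, 25, 65, 24.2 and 17.7 CPM in RT + αPD-L1 (1.35 ± 0.34, adjusted p = 0.0166). Klrg1, a marker of short-lived effector cells, was at 0.114 to 0.588 CPM and at 0.299, 1.58, 18.6, 2.66 and 0.865 CPM (3.85 ± 0.92). Neither was called without mouse 3, where Klrk1 was at 0.73 (adjusted p = 0.122) and Klrg1 at 1.89 (adjusted p = 0.215). The count depended on single mice: leaving out treated mouse 3 gave 2 members called and leaving out treated mouse 2 gave 6, and leaving out Control mice 1 to 5 in turn gave 3, 7, 6, 6 and 5.

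In droplets, free RNA gives some UMIs to every cell of a pool. In cells thinned to 3000 UMIs, the share with a Gzmb UMI was 4.20%, 7.56%, 23.1%, 5.92% and 7.24% in RT + αPD-L1 mice 1 to 5 and 0.702% to 1.51% in Control. In the naive-like cluster, which should lack Gzmb (median 5097 UMIs), the shares of those mice were 6.82%, 5.73%, 8.74%, 5.26% and 4.41%. Of 12 B-cell barcodes of that library (Cd79a; median 5218 UMIs) 2 had a Gzmb UMI, against 0 of 7 in Control (6561 UMIs), which allows a share of up to 42.9%. The overall share of mouse 1 was below that of its naive-like cells, of which there were only 88. Those of mice 2, 4 and 5 were above theirs, with the widest gap in mouse 5. Clusters were made without Gzmb, so whether the naive-like cells truly lack it was not tested. The overall shares of mice 1, 2, 4 and 5 are therefore not read as expression. Within other clusters, taken where a mouse had 20 or more thinned cells, mouse 3 reached 30.8% in cluster 3 (effector or memory-like), 28.5% in cluster 5, 24% in cluster 6, 50.4% in cluster 8 (G2/M-like), 27.6% in cluster 10, 72.9% in cluster 11 (S phase-like) and 21.2% in cluster 12 (γδ T cell-like). Mouse 2 reached 19.7% in cluster 8 and 21.1% in cluster 11, and all other shares, Control included, were at 12.8% or less. How much of the summed Gzmb and Gzma levels of the other mice was free RNA was not tested.

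**Figure D3:**
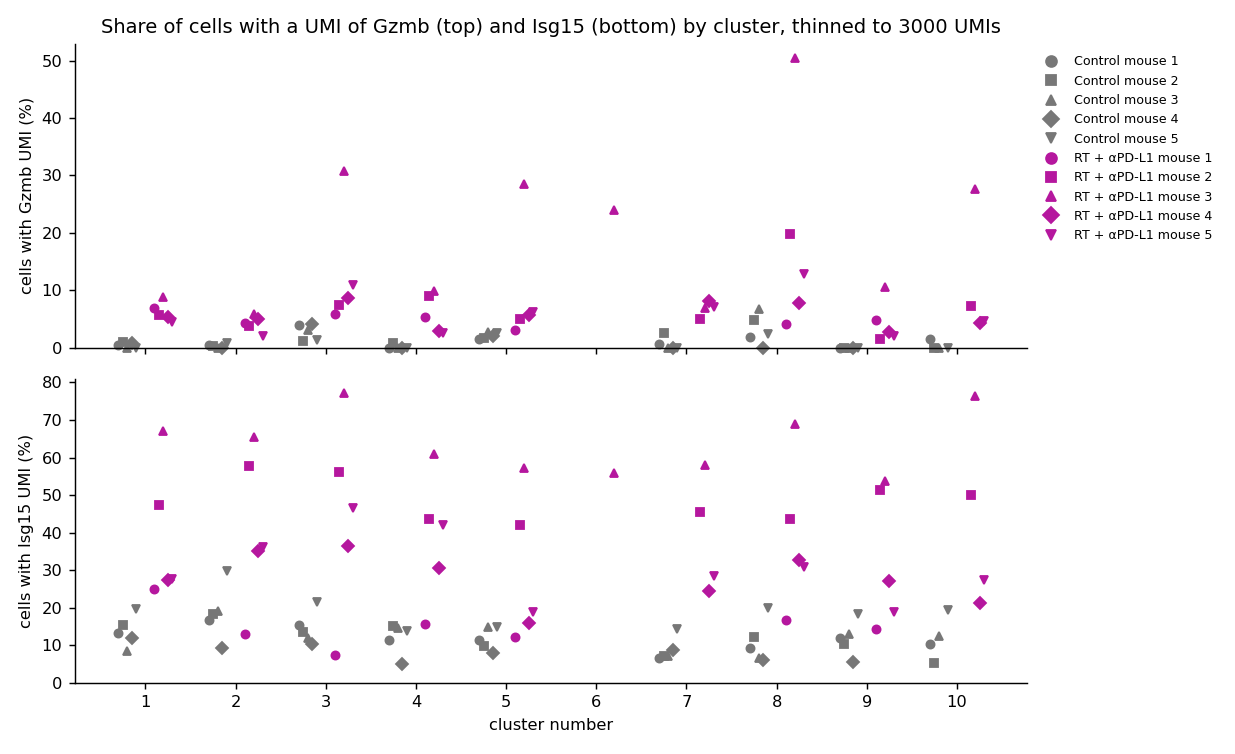
Share of cells with a UMI of Gzmb (top) and of Isg15 (bottom) in clusters 1 to 10 by mouse, each cell thinned to 3000 UMIs; the horizontal axis is the cluster number and gray and magenta are Control and RT + αPD-L1. In these clusters Gzmb is at 12.8% or less in all mice but RT + αPD-L1 mouse 3 and, in cluster 8, mouse 2 (19.7%), whereas Isg15 of mice 2 and 3 is above all Controls in each cluster where both are plotted.

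Ly6a, which encodes the surface protein Sca-1 and is itself induced by interferon, was at 57.2, 99.4, 91.7, 36 and 78.9 CPM in Control and at 120, 385, 971, 200 and 173 CPM in RT + αPD-L1 (2.38 ± 0.49, adjusted p = 0.00435). All treated mice, mouse 1 included, were above all Controls, and the means of RT and αPD-L1 alone were 73.3 and 109 CPM. Ly6c2, a marker of memory CD8+ T cells, was at 330, 510, 354, 320 and 447 CPM and at 390, 1055, 1709, 838 and 613 CPM (1.26 ± 0.25, adjusted p = 0.0037). Of the 8 tested Ly6 genes these were the 2 called higher. Ly6m was called lower (-0.94 ± 0.25) from 1.64 CPM in Control, a call lost in 7 of 19 alternatives.

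Il7r, the receptor for the survival cytokine interleukin-7, was at 103, 117, 118, 131 and 121 CPM in Control and at 189, 244, 174, 219 and 251 CPM in RT + αPD-L1 (0.88 ± 0.14, adjusted p = 0.00145). Every treated mouse was above every Control, and here mouse 3 was the lowest treated mouse and mouse 1 not. RT and αPD-L1 alone had means of 169 and 183 CPM. Il2rg, the common γ chain, rose by 0.24 ± 0.04 with no overlap. Both genes kept their calls in all 20 alternatives. Il2rb, a chain of the interleukin-2 and interleukin-15 receptors, was not called (0.09 ± 0.09).

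Stem-like regulators mostly did not pass the test: 3 of 18 were called higher, 1 lower, with a median of -0.01. Tcf7 was at 536 to 581 CPM in Control and at 544, 501, 422, 538 and 521 CPM in RT + αPD-L1 (-0.13 ± 0.05, adjusted p = 0.147). Satb1, a chromatin organizer of early T cells (0.35 ± 0.10), and Sox4 (-0.59 ± 0.17) were called. Among 18 effector regulators 3 rose and 1 fell: Prdm1, of BLIMP-1 (1.26 ± 0.32), Tbx21, of T-bet (1.07 ± 0.33), and Runx3 (0.33 ± 0.08) rose, and Tox, which sustains exhausted T cells, fell by 0.24 on the log2 scale (adjusted p = 0.0344). Tbx21 lost its call in 12 of 20 alternatives, Tox in 8, Prdm1 and Satb1 in 6 each, Sox4 in 7 and Runx3 in 5. Among 18 inhibitory receptors 2 rose and 2 fell, and Cd274, of PD-L1 itself, was not called (0.58 ± 0.20, adjusted p = 0.0678).

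Chemokine receptors and adhesion molecules were called higher in 11 of 30 cases and lower in none (median 0.20). Ccr2, a receptor for inflammatory monocyte chemokines, was at 4.67 to 8.47 CPM in Control and 10.8, 9.32, 23.4, 9.58 and 10.7 CPM in RT + αPD-L1, without overlap (1.32 ± 0.32, adjusted p = 0.0121); without mouse 3 it was at 0.86 and not called. Itga1, an integrin chain for collagen, was called at 1.43 ± 0.37 and lost its call in 5 alternatives. Cxcr3, for which 95.5 and 108 CPM were measured, and Ccr7, which holds cells in lymph nodes, with 350 and 312 CPM, were not called. Of 18 chemokines and cytokines 4 rose and 1 fell. Ccl5 was at 354, 382, 399, 531 and 239 CPM in Control and at 454, 787, 1185, 656 and 717 CPM in RT + αPD-L1 (1.03 ± 0.24, adjusted p = 0.0106). Cxcl10, a CXCR3 ligand, was at 82.1 and 105 CPM in mice 2 and 3 but at 14.7 to 17.6 CPM in mice 1, 4 and 5, against 13.8 to 24.3 CPM in Control, and its call (1.45 ± 0.44) was lost in 13 of 20 alternatives.

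Of 34 genes that respond to the antigen receptor 8 were called lower and none higher, with a median of -0.15. Spry1, an inhibitor of RAS signaling, was at 36.9, 34.3, 35, 30.9 and 32.6 CPM in Control and at 26.3, 18.3, 16.9, 27.1 and 29.4 CPM in RT + αPD-L1 (-0.59 ± 0.13, adjusted p = 0.00624), with no overlap. Rgs16, which shortens G protein signals, was lower by -0.65 ± 0.13, Egr3 by -0.59 ± 0.18 and Cd83 by -0.66 ± 0.17. Nr4a1 and Egr1, common reporters of receptor signals, had log2 changes of -0.33 and -0.10 and were not called. The count was 5 when any of Control mice 2 and 3 or treated mouse 3 was left out.

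Genes linked to anergy and chronic stimulation were called lower in 5 of 17 cases and higher in none (median -0.21). Izumo1r, of folate receptor 4, was at 123, 161, 187, 124 and 169 CPM in Control and at 107, 112, 79.4, 91.9 and 110 CPM in RT + αPD-L1 (-0.61 ± 0.11, adjusted p = 0.00261). Cd200, whose product quiets myeloid cells, was at 64.2, 70.7, 78.0, 63.8 and 63.5 CPM and at 60.4, 35.5, 38.0, 49.0 and 52.2 CPM (-0.57 ± 0.12, adjusted p = 0.00462). Neither overlapped between groups, and both kept their calls in all 20 alternatives. Nrn1, of neuritin, was at 77.6 to 137 CPM and at 73.3, 41.9, 46.2, 60.9 and 77.6 CPM (-0.76 ± 0.20, adjusted p = 0.0216), so the ranges met at 77.6 CPM, and it lost its call in 5 alternatives. Without mouse 3 the list had 2 calls.

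Some of the steadiest changes were outside the lists. Trim14, an adaptor of antiviral signaling, was at 29.5, 27.6, 31.4, 30.1 and 32.1 CPM in Control and at 39.5, 59.4, 55.0, 42.2 and 43.4 CPM in RT + αPD-L1 (0.73 ± 0.10, adjusted p = 0.000705). Jaml, an adhesion receptor that costimulates T cells, was at 48.6, 51.6, 56.2, 45.3 and 67.0 CPM and at 70.0, 132, 132, 76.6 and 82.3 CPM (0.92 ± 0.16). Ccnd3, of the G1 cyclin D3, was at 151 to 176 CPM and at 192 to 225 CPM (0.37 ± 0.06). None of these 3 overlapped. The chromatin genes Nsd3 (0.34), Morc3 (0.58) and Resf1 (0.45) and Fchsd2, which acts in endocytosis (0.50), also rose, and were called in all 20 alternatives. Hivep3, a zinc-finger regulator, fell without overlap (-0.72 ± 0.14), and Trib1, a pseudokinase, was at 20.9 to 31.3 CPM in Control and at 12.9, 10.4, 9.77, 21.8 and 14.1 CPM in RT + αPD-L1 (-0.89 ± 0.18, adjusted p = 0.00346).

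Several lower genes outside immune pathways were separated between libraries with little spread among mice. AY036118 (chr17:39847113-39848035 in GRCm38) was at 858, 891, 862, 873 and 883 CPM in Control and at 755, 681, 722, 692 and 658 CPM in RT + αPD-L1 (-0.31 ± 0.05), with means of 689 CPM after RT and 569 CPM after αPD-L1. Lars2 was at 301 to 358 CPM and 202 to 265 CPM (-0.44 ± 0.07), and at 235 and 226 CPM after the single treatments. Both genes hold sequence much like ribosomal RNA, so the origin of their reads is uncertain. For both genes Control was the highest of the 4 libraries, and treatment and library cannot be told apart. AY036118 was not called under either HTODemux assignment.

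Replication-dependent histones were called lower in 10 of 60 cases and higher in none, with a median of -0.29, and 15 had all treated mice below all Controls. Hist1h4d was at 84.6 to 89.6 CPM in Control and at 60.7 to 69.1 CPM in RT + αPD-L1 (-0.43 ± 0.07, adjusted p = 0.00156), and at 62.2 and 66.0 CPM after RT and αPD-L1 alone. Hist1h1e, a linker histone, fell by 0.47 on the log2 scale. The share of cells with an Mki67 UMI, which marks cycling cells, was 14.3% in Control and 11.8% in RT + αPD-L1, and of S phase genes 2 of 32 and of mitosis genes 1 of 35 were called lower. The histone count was 2 when Control mouse 1, 2 or 5 was left out, 6 for Control mouse 4, and 3 or 4 for treated mice 1, 2, 3 or 5. Ribosomal protein genes were called lower in 4 of 93 cases (median -0.02), oxidative phosphorylation genes in 6 of 79 (median -0.03), glycolysis genes in 0 of 17 and mitochondrially encoded genes in 0 of 13. Survival genes had 2 of 22 called higher and none lower, and p53 targets 1 of 18 higher and none lower. Chaperones had 2 of 12 and costimulatory receptors 3 of 15 called higher, and none lower. The antigen receptor complex had 2 higher and 1 lower of 22, and S100, annexin and galectin genes had 0 of 18 called. Over all genes tested, 5.95% were called higher and 2.86% lower.

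Markers of other cells were followed in the same sums. Barcodes high in Trdc, Cd79a, H2-Aa or H2-Ab1 had been dropped, and these genes are among the γδ T, B and dendritic cell markers. The values of those lists therefore cannot show how many such cells passed the sort. γδ T cell markers were called in 0 of 10 cases, B cell markers in 0 of 5, CD4 T cell markers in 0 of 7 and monocyte markers in 0 of 2. Dendritic cell markers summed to 96.3 to 107 CPM in Control and to 107 to 157 CPM in RT + αPD-L1, and 1 of 7, Itgax, was called higher. NK cell markers summed to 52.9 to 64.5 CPM and to 52.0 to 109 CPM with 3 of 5 called, Fcer1g, Tyrobp and Klre1, whereas Klrb1c, which defines NK cells, was at 2.70 and 1.94 CPM and not called, and Ncr1 and Klra8 did not pass the filter on low counts. Plasmacytoid dendritic cell markers had 1 of 5 called, Bst2, which is also an interferon-stimulated gene. Monocyte markers were at 3.58 to 13.5 CPM in Control and reached 49.8 CPM in RT + αPD-L1 mouse 3. There were 1067 calls when clusters that resembled γδ T, dendritic and monocytic cells were removed.

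The combination was also compared with the sum of both single treatments in the same fit. The excess was positive at an adjusted p under 0.05 for 79 genes (0.656% of those tested) and negative for 26. Of the 88 antiviral genes 24 were positive, of the sensors 3 of 26, of the transducers 2 of 20 and of the GTPases 1 of 17. No granule, NK-type receptor or Ly6 gene passed: the excess of Gzmb was 2.05 (adjusted p = 0.536) and that of Ly6a 1.66 (adjusted p = 0.316). Among named genes it was largest for Rsad2 with 4.63 (adjusted p = 0.031), followed by Ifi44 with 4.31 and Ifit3b with 4.15. Of the genes with a positive excess, 17 of 56 with a promoter held the ISRE core. Means after both single treatments were below Control in 17 of the 18 named genes with an excess, as for Rsad2 with 5.46 CPM in Control, 3.12 CPM after RT and 2.41 CPM after αPD-L1, and the excess was above the change over Control in all 18. The counts hung on single mice: leaving out Control mice 1, 2, 3 and 5 in turn left 35, 20, 47 and 20 positive genes, and leaving out treated mice 1 to 5 in turn left 197, 37, 45, 126 and 126.

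Cells of all 4 libraries were clustered without the genes called above and the variable segments of the antigen receptor, 1315 genes in all. Of 16 clusters 10 had enough mice for a fit within them. Cluster 1 was naive-like (Igfbp4, Ccr9, Klf2), cluster 3 effector or memory-like (S100a6, Gzmk, S100a4), cluster 4 recently activated-like (Tnfrsf4, Egr2), cluster 8 G2/M-like (Ccnb2, Cdc20) and cluster 9 S phase-like. Cluster 10 held 3 of the effector or memory markers, but Klra7, Klra6 and Fcer1g led it, so it is given by its leading genes, as are clusters 2, 5, 6 and 7, which stayed unnamed. Of the clusters that were not fitted, 11 was S phase-like, 15 was monocyte-like, 14 was dendritic cell-like and 12 was γδ T cell-like. The largest cluster over all 4 libraries was naive-like although the cells had been sorted as CD44+. Cluster 1 held a mean of 17.2% of cells in Control, where cluster 2 held 21.6%, and 21.9% against 18.7% in RT + αPD-L1. The study's methods also name CD44-negative naive cells of untreated mice, sorted as controls. Whether any of them entered the Control library was not tested. Of 14 clusters compared for their share of cells none passed the test, and the lowest p belonged to cluster 3 with 13.8% in Control and 18.4% in RT + αPD-L1 (exact permutation test p = 0.0397, adjusted p = 0.319).

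The rise of interferon-stimulated genes was met in all 10 clusters. Called higher were 256 genes in cluster 1 (2.82% of those tested), 226 in cluster 2 (2.37%), 284 in cluster 3 (3.11%), 135 in cluster 4 (1.53%), 122 in cluster 5 (1.37%), 114 in cluster 6 (2.04%), 179 in cluster 7 (2.42%), 183 in cluster 8 (2.16%), 106 in cluster 9 (1.24%) and 165 in cluster 10 (2.8%). Of the antiviral list 71 of 75 tested members were higher in the naive-like cluster, 70 of 82 in cluster 3, 57 of 77 in cluster 8 and 44 of 69 in cluster 5, the lowest share of the 10. Granule genes were higher in 6 of 16 cases in cluster 8, in 3 of 13 in cluster 1 and in 0 of 12 in cluster 7. Of 4659 genes tested in every cluster 40 were higher in all 10, among them Isg15, Ifit1, Ifit3, Irf7, Stat2, Usp18, Zbp1, Bst2, Xaf1, Tgtp1 and Ly6a, and none was lower in 8 or more. AY036118, Cirbp, Hist1h1e and Rpl4 were lower in 5. Without mouse 3 the calls summed over clusters were 944 against 2159.

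**Figure D4:**
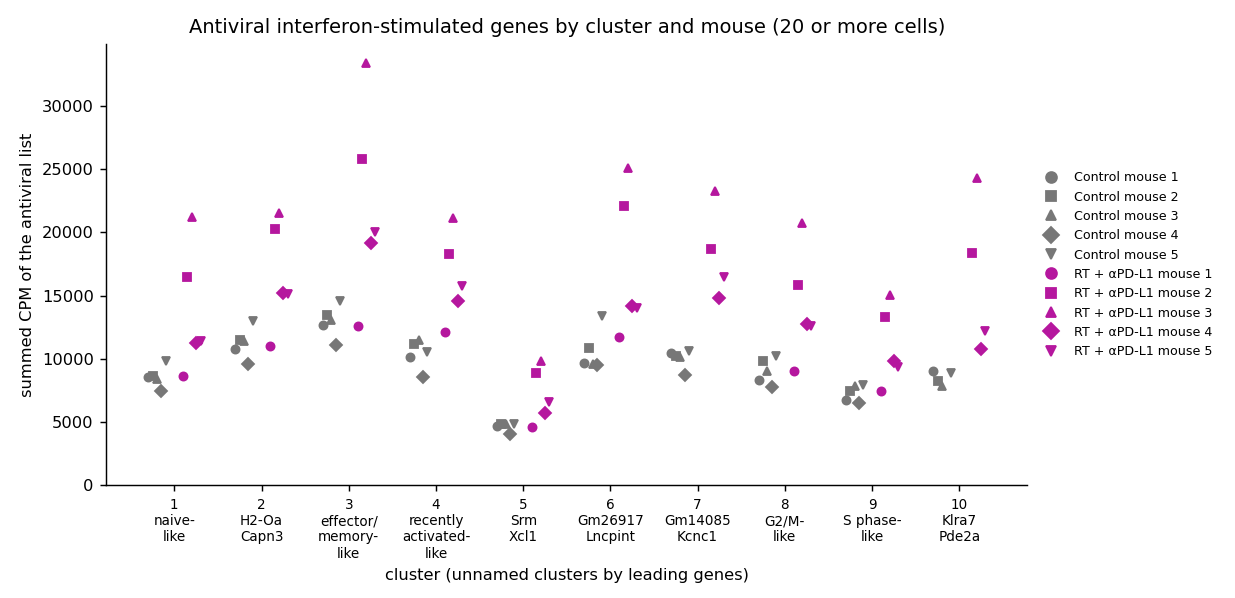
Summed CPM of the antiviral list per mouse with 20 or more cells in each of 10 clusters, named where markers allowed and otherwise given by leading genes. Control mice (gray) reach at most 14607 CPM, in cluster 3, RT + αPD-L1 mice 2 and 3 (magenta squares and upward triangles) lie above them throughout, and the level itself is highest in cluster 3 and lowest in cluster 5.

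Within cluster 3, Isg15 was detected in 7.35%, 56.2%, 77.3%, 36.4% and 46.6% of the thinned cells of RT + αPD-L1 mice 1 to 5, against 10.3% to 21.5% in Control. Mouse 1, with 68 such cells, was below all Controls. Ly6a in the same cluster was at 39.7%, 62.7%, 80.5%, 51.8% and 48.6% against 18.6% to 38.5%. Gzmb was called higher in 8 of the clusters, with log2 changes of 3.55 to 5.63, the naive-like cluster among them. Within the fitted clusters its share of thinned cells passed 12.8% only in RT + αPD-L1 mouse 3 and, in cluster 8, mouse 2. How much of these Gzmb changes was free RNA was not tested. Il7r was not called in clusters 3 and 8, and Izumo1r was called lower in clusters 2, 3, 8 and 9. Pdcd1 was called higher in cluster 4 (0.72, adjusted p = 0.0257).

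Shares of cells with at least 1 UMI, after thinning to 3000 UMIs, gave 1 value per mouse. Thinning left out 778 Control cells (8.66%) and 1020 RT + αPD-L1 cells (10.5%) that were shallower. Of 24 shares 20 passed the exact permutation test of 5 against 5 mice after Benjamini-Hochberg adjustment, and the smallest p that this test allows is 0.007937. The genes were picked, and many had already been called in the sums of the same cells, so this count is no separate support. Isg15 was found in 14.1% ± 4.49 of Control cells (SD, n = 5) and in 14%, 50.4%, 67.6%, 28.9% and 34.1% of RT + αPD-L1 cells (exact adjusted p = 0.0254). Ly6a was found in 9.53%, 15.6%, 13.9%, 8.77% and 12.7% and in 18.9%, 39.5%, 59.3%, 26.7% and 23.8% (exact adjusted p = 0.0212). Unthinned, these means were 23.7% and 49.4% for Isg15 and 19.5% and 43.1% for Ly6a. No cell type that should lack these 2 genes was at hand, and the part of free RNA in their shares was not tested.

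Cells with both Tcf7 and Ly6a made up 9.04% in Control and 22.7% in RT + αPD-L1 (exact adjusted p = 0.0212). Those that also had no Tox UMI made up 6.68% and 18.0%. A thinned cell can miss a transcript it holds, so the latter were not shown to be Tox-negative. Cells with Tcf7 and Tox made up 23.6% and 18.6%. Tcf7 alone was in 76.1% and 71.9% (exact adjusted p = 0.0254; unthinned 90.4% and 85.6%), and Tox in 30.6% and 25.2%. Il7r was in 24.1%, 27.3%, 26.6%, 30.4% and 27.8% of Control and 35.7%, 44.2%, 33.4%, 40.6% and 42.7% of RT + αPD-L1 cells (exact adjusted p = 0.0212), so every treated mouse was above every Control. Izumo1r was in 28.1% and 20.2%, Cd200 in 15.8% and 10.8%, and Nrn1 in 14.3% and 9.64%. Pdcd1 was in 5.91% and 6.65% (exact adjusted p = 0.706), and cells with Tcf7, Ly6a and Klrk1 together made up 0.743% and 2.01% (exact adjusted p = 0.0606).

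**Figure D5:**
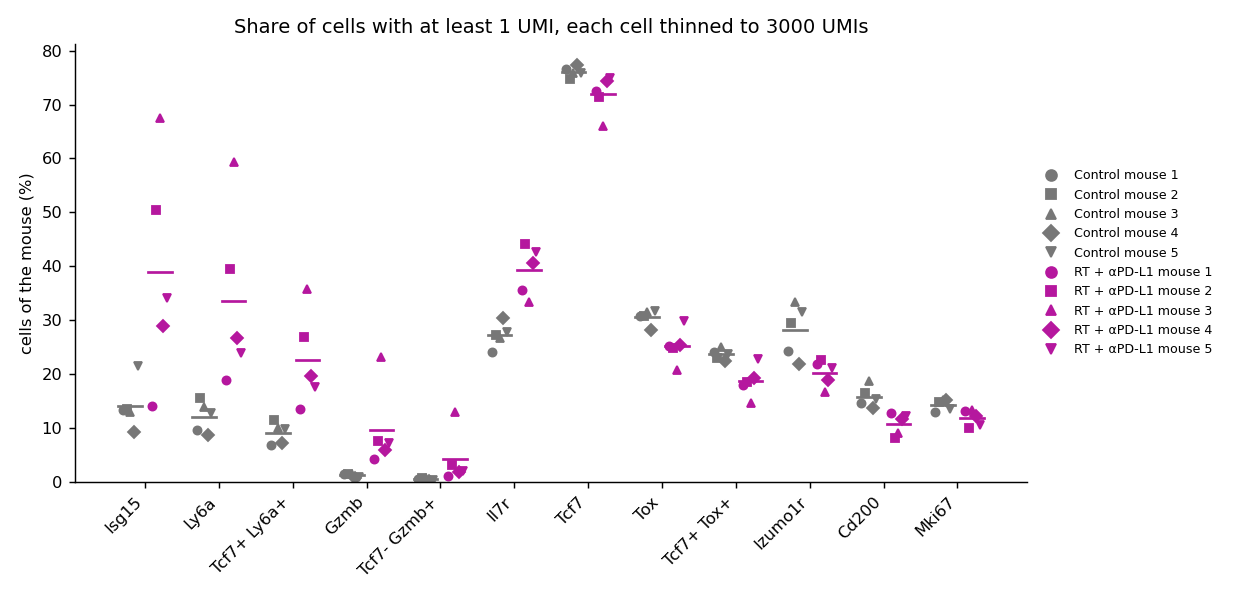
Share of each mouse's cells with at least 1 UMI of the gene or genes named below the axis (minus sign: no UMI), each cell thinned to 3000 UMIs, in 5 Control (gray) and 5 RT + αPD-L1 mice (magenta); lines are means. Ly6a, Tcf7 with Ly6a and Il7r are higher in all 5 treated mice than in any Control, and Isg15 is not, because mouse 1 is at 14%.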

How the data were processed

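Raw counts of UMIs per gene were deposited by the authors as 1 matrix for each library with 5 hashtag rows, made with Cell Ranger (6.1.2 in the matrix header, another version in the study's methods) and the mm10 mouse reference, without splitting by mouse. From those counts, each hashtag's positive barcodes were set at the emptiest bin (0.1 on a log10 scale) between background and positive modes, and barcodes with several hashtags (8.14% in Control, 8.85% in RT + αPD-L1) were left out as doublets; no other doublet caller was used. This departs from the HTODemux step of the study, run here in Seurat 5.3.0 as an alternative. At margin 2, a setting of its scaling, it gave 98.7% (Control) and 99.7% (RT + αPD-L1) of the barcodes called by both to the same mouse. Called by both were only 6652 of 9171 Control and 6815 of 9886 RT + αPD-L1 barcodes with 1 clear hashtag. Control mouse 1 went from 2123 cells to 448 at margin 2 and 73 at margin 1. RT + αPD-L1 mouse 3 went from 4693 to 2397 and 2553, and its mouse 1 rose from 468 to 553 and 543.

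Counts were summed per mouse (3343814 to 38163808 UMIs in the 10 mice compared) and tested with edgeR 4.0.16 (R 4.3.3; TMM, filterByExpr, quasi-likelihood, two-sided, Benjamini-Hochberg over 12051 genes). On data simulated for this comparison (11968 genes), 100 of 100 genes were recovered at a log2 change of 1 and 100 of 100 at 2, with 12 false calls. Only genes at 10 CPM or more were changed there, and each gene had the same spread in all groups. Recovery of lower genes, or under a spread that differs between groups, was not simulated. Clusters used scanpy 1.11.5 (2000 variable genes, 20 components, 15 neighbors) and leidenalg 0.10.2 at resolution 0.6. Cells were thinned to 3000 UMIs for shares, which were tested by exact permutation over mice. Limits on counts of 0 cover counting error only.

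The members, the gene lists and the rule for named genes were chosen with earlier results of these data known. That rule named, at 10 CPM or more, the 12 called genes with the largest rise and fall and the 15 steadiest outside all lists in each direction, up to 4 called and 1 uncalled member of each list, the genes of the study's subset and the sorted genes; Gm and Rik genes were not named. Genes named outside it (Ifi27, Cgas, B2m, Tap1, Prf1, Ifnar1, Ifnar2, Nr4a1, Egr1 and the markers of other cells) were chosen after their values were seen. Hashtags mark mice by number only. P-values measure the spread between mice of single libraries. Alternatives changed the mice fitted, tool, scaling, count filter, assignment and cells kept; DESeq2 1.42.0 was one. Some genes that the rule names are not reported here.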

Additional observations from a re-analysis of the deposited data

Results flagged for a closer look

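Single mice stood far from the other 4 of their group in 29 of the values of 146 named genes in 2 groups, by a gap of over 0.71 of the group's range, which chance gives in about 1 in 20 groups. RT + αPD-L1 mouse 3 was that mouse 19 times, and always the highest. Its granzyme values were 456 CPM for Gzma, 791 for Gzmb, 7.78 for Gzmc and 26.1 for Gzmm. Its NK-type receptor values were 65.0 CPM for Klrk1, 84.3 for Klrc1, 18.6 for Klrg1 and 5.35 for Klra1. Its cytokine and chemokine receptor values were 36.3 CPM for Il12rb2, 279 for Ifngr1, 23.4 for Ccr2 and 136 for Cxcr3. The others were 8.36 CPM for Cxcl9, 67.3 for Ifitm3, 20.3 for Ifi204, 7.81 for H2-Q10, 65.2 for Pdcd1, 143 for Ptpn22 and 215 for Satb1. This mouse held more cells than any other mouse of its library, and whether its cell number bears on these values was not tested.

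Control mouse 5 was the highest Control for Ifit3 (59.0 CPM), Ifit3b (31.3 CPM) and Ifitm3 (3.53 CPM), and the lowest for Pstk (27.1 CPM). Control mouse 3 was the highest for Cxcl9 (1.71 CPM) and Tbx21 (19.6 CPM) and the lowest for Rps12 (4535 CPM), and Control mouse 4 the highest for Prdm1 (1.97 CPM). RT + αPD-L1 mouse 1 was the highest for Ndrg1 (10.5 CPM) and the lowest for Ube2d1 (38.6 CPM).

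The combination differed from the sum of both single treatments, tested as an interaction in the edgeR fit, in 18 named genes. Antiviral effectors had the largest excess on the log2 scale, with 4.63 for Rsad2, 4.31 for Ifi44, 4.15 for Ifit3b, 3.84 for Oas2, 3.71 for Ifit3, 3.64 for Oasl2, 3.24 for Ifit1 and 3.23 for Isg15. Regulators and sensors followed, with 2.97 for Usp18, 2.33 for Dhx58, 2.22 for Irf7, 1.86 for Tlr7 and 1.42 for Stat2. Gbp10 had 2.45 and Trim14 0.80. Lars2 had 0.48, AY036118 0.645 and the histone gene Hist1h4d 0.43, although the combination itself was below Control for these 3. In 17 of the 18 genes, Trim14 being the exception, both single treatments had means below Control, and in all 18 the excess was larger than the log2 change of the combination over Control, as for Rsad2 with 4.63 against 3.33.

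The barcodes left out as other cells held the antiviral list at a higher level in RT + αPD-L1 than in the other libraries. Barcodes with Trdc, a γδ T cell gene, summed to 18390 CPM against 7553 in Control, 7494 after RT and 8084 after αPD-L1. Those with Cd79a, a B cell gene, summed to 16377 CPM against 8857, 7893 and 6948 CPM, over 14 barcodes against 9 in Control. Of these 14 barcodes, 11 came from RT + αPD-L1 mouse 3, at 17327 CPM. The other 3 came from its mouse 5, at 11590 CPM, against 10985.5 CPM in 3 barcodes of Control mouse 5. Those with MHC class II genes summed to 21517 CPM against 7686, 8094 and 7259 CPM. Of the 122 MHC class II barcodes of RT + αPD-L1, 78 came from mouse 3, at 28874 CPM, and its other mice lay between 6131 and 9328 CPM. Among Trdc barcodes, mice 1 to 5 were at 8297, 23384, 22913, 11578 and 12099 CPM. These barcodes are not replicated beyond 5 mice of a pool and no test was made.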

How the results depend on the processing

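Of the genes that the naming rule gave, no called gene changed direction in any alternative where it had a value. Genes named outside that rule were not followed through the alternatives. Pdcd1, which was not called, reversed: 0.42 on the log2 scale became -0.15 to 0.56 when single mice were left out, the lowest for RT + αPD-L1 mouse 3, and its share difference of 0.741 percentage points became -0.0872 unthinned and -0.397 to 1.34 when single mice were left out, again lowest for that mouse. Calls numbered 502 (339 higher, 163 lower) with the 10 mice only, 472 (339 and 133) and 272 (225 and 47) under HTODemux with margin 2 and margin 1, where 82.7% were higher against 67.5%. Leaving out single mice gave 540 to 1226 calls (396 to 844 higher, 144 to 382 lower). With the 10 mice only, members called fell to 11 GTPases, 3 NK-type receptors, 5 granule, 4 MHC class I and 5 antigen receptor response genes. Margin 2 gave 3 NK-type receptors, 4 antigen receptor response, 2 anergy and 6 histone genes, and margin 1 gave 2, 5, 3 and 5, with 3 granule genes. DESeq2 gave 5 granule genes and no low-count filter gave 6 histones. Without clusters 10, 12, 14 and 15, chosen after seeing the data, 5 NK-type receptors and 2 histones were called.

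Single mice moved these counts over 71 to 81 antiviral genes, 14 to 17 GTPases, 15 to 18 sensors, 2 to 12 NK-type receptors, 4 to 10 granule, 6 to 21 MHC class I, 5 to 10 antigen receptor response, 2 to 6 anergy and 2 to 10 histone genes. The excess over both single treatments held for 18 named genes, 2 to 27 without single mice and 0 under margin 1. Positive genes numbered 45 (margin 2) and 3 (margin 1), 20 to 197 without single mice, negative ones 2 (margin 1) and 12 to 42, and antiviral ones 1 (margin 1) and 2 to 64. Calls within clusters numbered 944 without RT + αPD-L1 mouse 3. The cause was not tested. No paired analysis was possible because hashtag numbers only name mice of separate pools.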
